A study of Homo sapiens with 15 samples.

Results

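Nonsense-mediated decay and exon junction factors were examined as 9 genes, UPF1, UPF2, UPF3B, SMG1, SMG5, EIF4A3, RBM8A, MAGOH and NCBP1, taken by symbol from the deposited count tables. All 9 were present among the 56475 genes of the total RNA table and among the 20248 genes of the ribosome footprint table. The cells were MCF-10A, a non-tumorigenic human mammary epithelial line, and each siRNA library came from cells given 20 nM of an siRNA against eIF3e, or of a control siRNA, for 72 h. eIF3e is a subunit of the initiation factor eIF3, which binds the small ribosomal subunit and helps to load mRNA onto it. The 15 libraries were 3 control and 3 eIF3e siRNA libraries of total RNA, 3 and 3 of ribosome footprints, and 3 single footprint libraries. Of the single libraries, 1 held footprints of all ribosomes of a lysate, 1 those of ribosomes bound to eIF3B and 1 those of ribosomes recovered with eIF3E. No siRNA is named in the characteristics of the single libraries. The labels do not say whether replicate libraries came from separate cultures, nor whether the cells were 1 clone, so the p-values cover only library-to-library spread, which may be technical.

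Nonsense-mediated decay removes mRNAs on which translation ends too early. When introns are removed, an exon junction complex is left upstream of each junction, and a complex still present downstream of a terminating ribosome recruits UPF3B, UPF2 and UPF1. The kinase SMG1 then phosphorylates UPF1, and SMG5 and its relatives bind phosphorylated UPF1 and bring in decay enzymes. Because the pathway needs translation, and because mRNAs of several of its factors in human cells have been described as targets of it, both RNA and footprint levels of these genes are of interest after loss of an initiation factor.

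Among the 9 genes, UPF1 and SMG1 rose in total RNA after eIF3e siRNA, by 1.23-fold and 1.22-fold, and none fell. NCBP1 rose in footprints, by 1.65-fold, and none fell there. No gene of the set changed in footprints per mRNA. All 3 calls were small, and each was lost under several other settings or without single libraries, as given gene by gene.

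The promoters of UPF1 and SMG1 are shown because these are the genes whose total RNA rose. Each run is the 250 bases before the gene's annotated start in RefSeq (GRCh38.p14), 5′ to 3′ on the gene's own strand. Capitals mark the GC box GGGCGG or its reverse complement CCGCCC, and where matches overlap the capitals run on. The UPF1 window is chr19:18831709-18831958 on the plus strand, and the SMG1 window is chr16:18926409-18926658 on the minus strand.
UPF1: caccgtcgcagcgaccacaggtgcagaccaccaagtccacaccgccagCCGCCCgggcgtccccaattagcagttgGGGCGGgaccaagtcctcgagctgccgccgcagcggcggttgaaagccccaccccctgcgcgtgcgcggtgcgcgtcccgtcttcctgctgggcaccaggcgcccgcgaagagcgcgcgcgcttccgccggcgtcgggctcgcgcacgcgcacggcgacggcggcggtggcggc
SMG1: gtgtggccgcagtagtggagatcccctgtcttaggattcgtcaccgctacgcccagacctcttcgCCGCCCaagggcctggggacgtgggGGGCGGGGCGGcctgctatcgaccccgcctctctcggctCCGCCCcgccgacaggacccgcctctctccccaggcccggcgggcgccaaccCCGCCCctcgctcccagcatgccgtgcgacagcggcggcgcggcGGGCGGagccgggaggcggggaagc
The UPF1 window held 2 GC boxes and the SMG1 window 6, 2 of which overlap each other. Each window was 75.6% G and C, against a median of 58% over 35116 RefSeq promoters of the same length. A GC box on either strand was present in 42.6% of those promoters. Promoters were available for 8 of the 9 genes (NCBP1 was the other), and all 8 genes had at least 1 window with a GC box. UPF2 and SMG5 had 2 windows each, and 1 window of SMG5 held none. The 8 is thus per gene, while the 42.6% is per promoter. The motif TATAAA, present on either strand in 10.7% of all promoters, was found in no window of the 8 genes. The motif CCAAT, present in 32% of all promoters, was found for UPF1, UPF2, UPF3B, SMG5 and RBM8A. The motif CCGGAAG, present in 8.52%, was found for RBM8A and MAGOH. The motif TGACGTCA, present in 1.65%, was found for MAGOH only. These matches describe letters in these windows and were not tested against the changes in RNA.

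Total counts were 4263767 to 5646270 in the total RNA libraries, 1889543 to 3447360 in the siRNA footprint libraries and 1224606 to 1630872 in the single libraries. Levels are given as CPM, each gene's counts relative to the library's total on a fixed scale, after scaling with edgeR's TMM method. Changes are log2 fold changes of eIF3e over control siRNA ± SE from edgeR's quasi-likelihood test, with p-values adjusted over all genes tested (Benjamini-Hochberg, threshold 0.05). The siRNA target EIF3E fell by 3.15 ± 0.12 on the log2 scale in total RNA (adjusted p = 1.6e-10) and by 2.88 ± 0.16 in footprints (adjusted p = 5.3e-14). The make-up of total RNA moved with the siRNA. The non-coding RNA RPPH1 took 9.33% to 12.3% of control counts and 6.37% to 7.10% of eIF3e counts, and genes of the footprint table took 64.0% to 71.2% and 73.1% to 76.8%. In bulk RNA of this kind, fewer cells of a type and less RNA per cell cannot be told apart. All 12 basal and mammary epithelial markers passed the filter on low counts in both assays. Of these, 2 rose and 3 fell in total RNA (median log2 fold change -0.27), and 3 rose and 7 fell in footprints (median -0.39). Their summed level was 14017 to 15378 CPM in control and 14138 to 14993 CPM in eIF3e total RNA, and 29283 to 32495 and 28755 to 29649 CPM in footprints. Of 12 markers of other cell types, PTPRC, PECAM1, VWF, COL1A2, PDGFRA, ALB, GFAP and MYH11 had at most 5 counts in any library. CD14, CD68, COL1A1 and DCN were present. In each assay 4 of the 12 were tested. Of these, 2 rose and 0 fell in total RNA (median 0.42), and 3 rose and 0 fell in footprints (median 0.86). Of all genes tested, 18.8% rose in total RNA and 10.0% in footprints. The summed level of the 12 markers of other cell types was 76.7 to 99.9 CPM in control and 123 to 138 CPM in eIF3e total RNA, and 369 to 382 and 636 to 731 CPM in footprints. The part of these shifts in the results for the 9 genes was not tested.

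Of the 9 genes, 8 passed the filter in total RNA, the exception being UPF3B, and all 9 passed it in footprints. In total RNA, 2 of the 8 rose and 0 fell, where 18.8% of all 11719 genes tested rose and 18.7% fell. At an unadjusted p under 0.05, 5 of the 8 passed in edgeR, all of them higher after eIF3e siRNA, where 23.7% of all genes tested passed as higher and 23.2% as lower. For 5 of the 8 the 3 libraries of one group did not overlap those of the other, which held for 49.7% of all genes. The median log2 fold change was 0.29 over the 8 genes and 0.02 over all genes tested. In footprints, 1 of the 9 rose and 0 fell, where 10.0% of 9228 genes rose and 8.46% fell, and the groups did not overlap for 2 of the 9, against 33.7% of all genes. The median over the 9 was -0.07, against -0.01 over all genes. These shares rest on few genes, and nothing particular to the set is read from them.

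**Figure D1:**
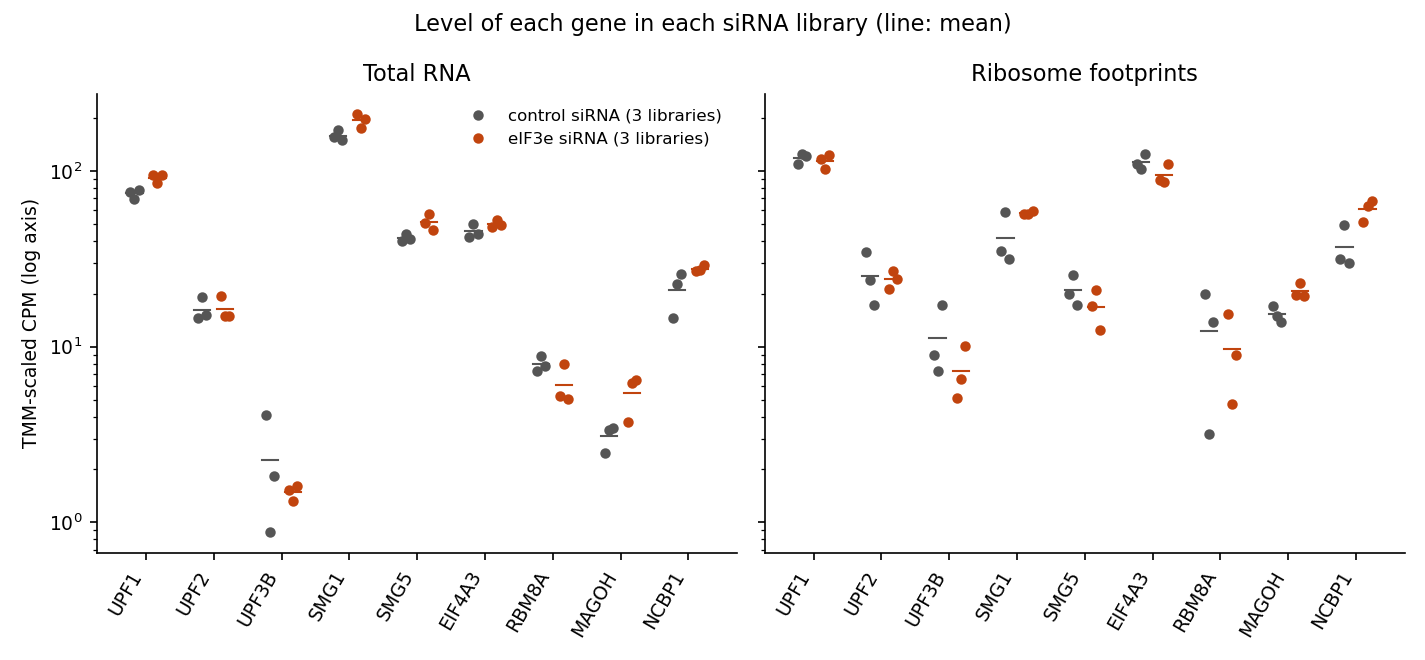
TMM-scaled CPM (log axis) of each of the 9 genes in total RNA and in ribosome footprints; points are single libraries (grey, control siRNA; orange, eIF3e siRNA; 3 each) and lines are means. The orange points lie above all grey points for UPF1, SMG1, SMG5, MAGOH and NCBP1 in total RNA, and for MAGOH and NCBP1 in footprints.

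The plot of levels by library also shows how the genes differ in precision. UPF3B had at most 18 counts and MAGOH at most 32 in any total RNA library, and the points of RBM8A in footprints are the most scattered. CPM is not scaled by transcript length here, so levels are compared within a gene and not between genes.

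UPF1 is the RNA helicase at the centre of the pathway (chromosome 19, 18831959 to 18868230, protein-coding). Its total RNA level was 75.7, 69.5 and 78.3 CPM in control replicates 1 to 3 and 94.7, 85.2 and 94.9 CPM in eIF3e replicates 1 to 3. The 3 eIF3e libraries all lay above the 3 control libraries. The log2 fold change was 0.30 ± 0.10 (95% interval 0.08 to 0.52, edgeR adjusted p = 0.033). The call was lost without control replicate 1 (adjusted p = 0.056) or 2 (0.14), without eIF3e replicate 1 (0.12) or 3 (0.11), with no filter on low counts (0.10) and in DESeq2's Wald test (0.10), and the adjusted p ranged from 0.0068 to 0.14 over 13 alternatives. In footprints UPF1 was at 109, 125 and 121 CPM in control and 117, 102 and 124 CPM in eIF3e libraries. The groups overlapped, and the log2 fold change was -0.05 ± 0.16 (95% interval -0.37 to 0.28, adjusted p = 0.89).

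UPF2 links UPF1 to UPF3B (chromosome 10, 11920022 to 12043170, protein-coding). Total RNA of UPF2 was 14.5, 19.2 and 15.1 CPM in control and 19.4, 14.9 and 14.9 CPM in eIF3e libraries, with 1 high library in each group. The groups overlapped, with a log2 fold change of 0.00 ± 0.18 (95% interval -0.37 to 0.38, edgeR adjusted p = 0.99). Footprints of UPF2 were 34.6, 24.1 and 17.2 CPM in control and 21.4, 26.9 and 24.4 CPM in eIF3e libraries. The control libraries spanned all of the eIF3e values, and the log2 fold change was -0.07 ± 0.32 (95% interval -0.72 to 0.57, adjusted p = 0.91).

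UPF3B ties the surveillance factors to the exon junction complex (chromosome X, 119805311 to 119852963, protein-coding). Its total RNA counts were 18, 5 and 8 in control and 7, 6 and 8 in eIF3e libraries, and it was not tested there. Footprints were 8.96, 7.27 and 17.2 CPM in control and 5.10, 6.55 and 10.1 CPM in eIF3e libraries. The groups overlapped, replicate 3 being highest in each, and the log2 fold change was -0.61 ± 0.53 (95% interval -1.69 to 0.47, edgeR adjusted p = 0.49). No library held more than 35 footprint counts of this gene.

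SMG1 is the kinase of UPF1 (chromosome 16, 18804860 to 18926408, protein-coding). In total RNA SMG1 was at 157, 171 and 149 CPM in control and 209, 176 and 196 CPM in eIF3e libraries. The eIF3e libraries were all higher, the lowest of them being close to control replicate 2. The log2 fold change was 0.29 ± 0.10 (95% interval 0.07 to 0.51, edgeR adjusted p = 0.039). The call was lost without control replicate 1 (adjusted p = 0.092) or 3 (0.12), without eIF3e replicate 1 (0.19) or 3 (0.10), with DESeq2's size factors (0.052), with no filter (0.11) and in DESeq2's Wald test (0.086), and the adjusted p ranged from 0.0075 to 0.19 over 13 alternatives. SMG1 has several near-identical copies on the same chromosome, and how reads shared with them were counted is not given in the sources used here, so its level is uncertain. The copy SMG1P3 had 9 to 15 total RNA counts and the other copies 0 to 8, against 652 to 973 for SMG1 itself. In footprints SMG1 was at 35.0, 58.6 and 31.5 CPM in control and 56.5, 57.1 and 59.2 CPM in eIF3e libraries. Control replicate 2 fell among the eIF3e libraries while the other 2 control libraries were lower, and the log2 fold change was 0.46 ± 0.24 (95% interval -0.02 to 0.95, adjusted p = 0.19).

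SMG5 binds phosphorylated UPF1 and takes part in its dephosphorylation and in the decay of the bound mRNA (chromosome 1, 156249224 to 156291516, protein-coding). Total RNA of SMG5 was 40.0, 43.5 and 41.1 CPM in control and 50.2, 56.6 and 45.9 CPM in eIF3e libraries, with no overlap. The log2 fold change was 0.29 ± 0.12 (95% interval 0.05 to 0.54, edgeR adjusted p = 0.057), just short of the threshold. It passed with total-count scaling (log2 fold change 0.45, adjusted p = 0.017), at a minimum count of 50 (0.036) and without eIF3e replicate 3 (0.044), and the adjusted p ranged from 0.017 to 0.23 over 13 alternatives. The gene overlaps TMEM79, which was at 25.2 to 31.9 CPM in control and 19.2 to 25.0 CPM in eIF3e total RNA. Whether counting used strand is not given in the sources used here, so reads of the overlap cannot be told apart. Footprints of SMG5 were 20.0, 25.4 and 17.2 CPM in control and 16.9, 21.1 and 12.5 CPM in eIF3e libraries. They overlapped, with a log2 fold change of -0.32 ± 0.36 (95% interval -1.04 to 0.41, adjusted p = 0.61).

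**Figure D2:**
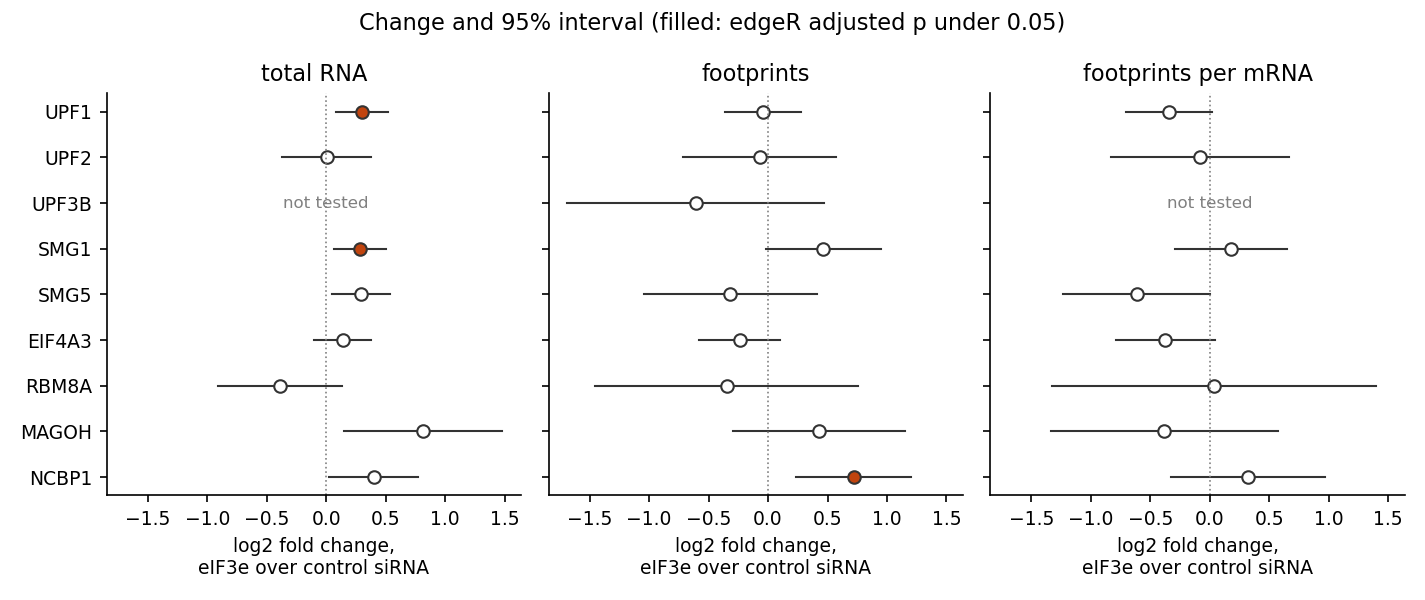
Log2 fold change of eIF3e over control siRNA (x axis) for each of the 9 genes in total RNA, in footprints and in footprints per mRNA; lines are 95% intervals and filled points passed an edgeR adjusted p of 0.05. UPF1 and SMG1 are filled in total RNA, NCBP1 in footprints, and no gene is filled in footprints per mRNA.

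EIF4A3 is the DEAD-box helicase that clamps the exon junction complex onto RNA (chromosome 17, 80134369 to 80147128, protein-coding). Its total RNA level was 42.0, 49.96 and 43.6 CPM in control and 48.0, 52.3 and 49.2 CPM in eIF3e libraries. Control replicate 2 lay among the eIF3e libraries, and the log2 fold change was 0.14 ± 0.11 (95% interval -0.10 to 0.38, edgeR adjusted p = 0.35). Footprints were 109, 103 and 125 CPM in control and 89.0, 85.9 and 110 CPM in eIF3e libraries. Here eIF3e replicates 1 and 2 lay below all control libraries and replicate 3 among them, and the log2 fold change was -0.24 ± 0.17 (95% interval -0.58 to 0.10, adjusted p = 0.38). EIF4A1, the related helicase of cap-dependent initiation, fell in footprints by 0.44 ± 0.14 on the log2 scale (adjusted p = 0.025). EIF4A1 did not pass in total RNA (-0.05 ± 0.24, adjusted p = 0.89) or in footprints per mRNA (-0.39 ± 0.27, 0.59). The related EIF4A2 passed in neither assay, at -0.18 ± 0.11 in total RNA and -0.26 ± 0.15 in footprints. Whether EIF4A3 and EIF4A1 differed from each other was not tested.

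RBM8A encodes Y14, the RNA-binding partner of MAGOH in the complex (chromosome 1, 145921556 to 145927484, protein-coding). In total RNA RBM8A was at 7.23, 8.80 and 7.76 CPM in control and 5.24, 7.98 and 5.04 CPM in eIF3e libraries. The eIF3e replicates 1 and 3 lay below the controls, and the log2 fold change was -0.39 ± 0.25 (95% interval -0.91 to 0.13, edgeR adjusted p = 0.22). Footprints were 20.0, 3.18 and 13.8 CPM in control and 15.3, 4.73 and 8.92 CPM in eIF3e libraries, from 7 to 49 counts. Replicate 2 was lowest in both groups, the groups overlapped, and the log2 fold change was -0.35 ± 0.54 (95% interval -1.45 to 0.76, adjusted p = 0.73).

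MAGOH pairs with Y14 and locks EIF4A3 in place (chromosome 1, 53226900 to 53238518, protein-coding). Its total RNA level was 2.49, 3.34 and 3.42 CPM in control and 3.71, 6.21 and 6.45 CPM in eIF3e libraries, from 11 to 32 counts. All eIF3e libraries were higher, replicate 1 only slightly. The log2 fold change was 0.82 ± 0.32 (95% interval 0.15 to 1.48, edgeR adjusted p = 0.052). It passed with total-count scaling (adjusted p = 0.028), when only genes of the footprint table were fitted (0.033) and without eIF3e replicate 1 (0.028), and the adjusted p ranged from 0.028 to 0.18 over 12 alternatives. Footprints were 17.1, 15.0 and 13.8 CPM in control and 19.8, 22.9 and 19.3 CPM in eIF3e libraries. These groups did not overlap either, yet the log2 fold change of 0.43 ± 0.35 did not pass (95% interval -0.29 to 1.15, adjusted p = 0.46). The near-identical paralog MAGOHB had 8 to 14 total RNA counts and 13 to 32 footprint counts a library, and reads shared by the paralogs may have been split or lost.

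NCBP1 is the large subunit of the nuclear cap-binding complex, which holds the cap of new mRNAs from transcription until eIF4E replaces it (chromosome 9, 97633821 to 97673748, protein-coding). Its total RNA level was 14.5, 22.7 and 25.8 CPM in control and 26.8, 27.3 and 29.0 CPM in eIF3e libraries. The eIF3e libraries lay close together and above the controls, among which replicate 1 was lowest. The log2 fold change was 0.40 ± 0.18 (95% interval 0.03 to 0.77, edgeR adjusted p = 0.085). It passed without control replicate 3 (adjusted p = 0.026) and when only genes of the footprint table were fitted (0.049), and the adjusted p ranged from 0.026 to 0.35 over 13 alternatives. In footprints NCBP1 was at 31.4, 49.1 and 30.0 CPM in control and 51.4, 63.3 and 67.5 CPM in eIF3e libraries. All eIF3e libraries were higher, eIF3e replicate 1 being close to control replicate 2. The log2 fold change was 0.72 ± 0.24 (95% interval 0.24 to 1.20, adjusted p = 0.030). This call was lost without control replicate 1 (adjusted p = 0.12) or 3 (0.10), without eIF3e replicate 2 (0.092) or 3 (0.13), and with total-count scaling (0.053), and the adjusted p ranged from 0.017 to 0.13 over 12 alternatives. The overlapping gene XPA had 8 to 15 total RNA counts a library, against 64 to 144 for NCBP1.

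**Figure D3:**
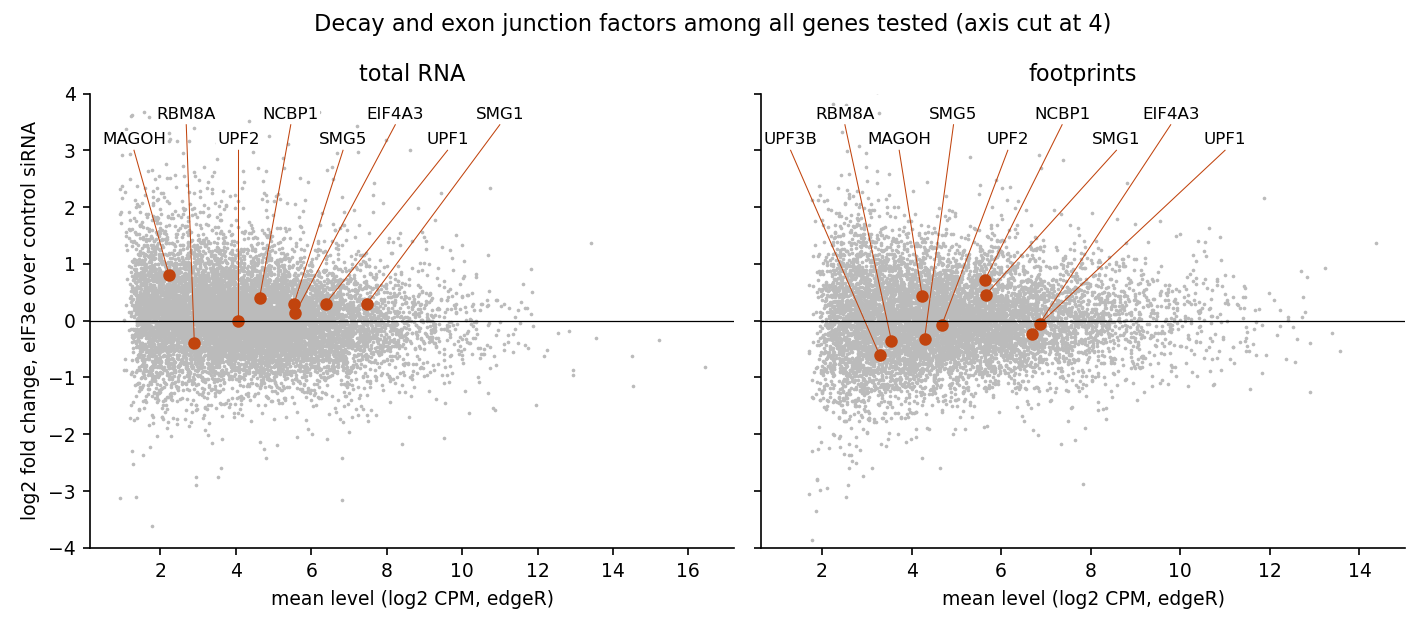
Log2 fold change of eIF3e over control siRNA (y axis, limited to 4 in each direction) against mean level (log2 CPM) for all genes tested (grey) in total RNA and in footprints, with the decay and exon junction factors in orange. The orange points lie inside the cloud of all genes in both panels.

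The plot of the set among all genes tested gives the scale of these changes. The log2 fold changes of the 8 genes tested in total RNA ran from -0.39 for RBM8A to 0.82 for MAGOH, and those of the 9 in footprints from -0.61 for UPF3B to 0.72 for NCBP1. Both ranges lie within the grey cloud. Scaling bears on the direction of small changes in total RNA, because with total counts the median of all genes moved from 0.02 to 0.18 and the share of changed genes that rose from 50.1% to 70.4%.

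Footprints per mRNA, the change in footprints minus the change in total RNA, were fitted in 1 edgeR model over the 12 siRNA libraries. No gene of the 8 tested changed, where 0.309% of 9055 genes changed in either direction. At an unadjusted p under 0.05, 0 of the 8 passed in edgeR, against 1091 of all 9055 genes tested, and 0 passed the adjusted threshold in DESeq2. Among surveillance factors the log2 change was -0.34 ± 0.18 for UPF1 (95% interval -0.71 to 0.02, adjusted p = 0.44). For SMG5 it was -0.61 ± 0.30 (95% interval -1.23 to 0.00, adjusted p = 0.42). It was 0.18 ± 0.23 for SMG1 and -0.08 ± 0.36 for UPF2. The lower footprint values of UPF1 and SMG5 relative to RNA thus stayed short of the threshold. Among exon junction factors it was -0.37 ± 0.20 for EIF4A3 (95% interval -0.79 to 0.04, adjusted p = 0.47). It was 0.04 ± 0.66 for RBM8A and -0.38 ± 0.46 for MAGOH, with intervals of -1.32 to 1.40 and -1.34 to 0.57 that leave room for changes of either sign. NCBP1 was at 0.32 ± 0.31 (95% interval -0.33 to 0.97, adjusted p = 0.74). The median over the 8 was -0.21, against 0.01 over all genes. With total-count scaling the median of all genes moved to -0.20, and the share of changed genes that rose moved from 46.4% to 3.26%.

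The 3 single footprint libraries compare ribosomes carrying eIF3 with all ribosomes of a lysate, and 7 of the 9 genes had at least 100 counts over the 3 libraries. With 1 library each there is no test, ratios are of TMM-scaled counts, and 95% intervals are exact and cover counting error only. A ratio was counted when it was at least 1.5-fold from 1. In eIF3B-bound over total footprints, 2 of the 7 genes were higher and 1 lower, where 20.3% of 6023 genes were higher and 22.0% lower. In eIF3E-bound over total footprints, 0 of 7 were higher and 2 lower, against 14.1% and 16.5%. In eIF3E-bound over eIF3B-bound footprints, 1 was higher and 2 lower, against 17.5% and 16.0%.

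SMG1 had 95, 42 and 78 counts in the total, eIF3B-bound and eIF3E-bound libraries. Its ratio to total was 0.379 (95% interval 0.257 to 0.551) with eIF3B and 0.620 (0.454 to 0.846) with eIF3E, so both bound libraries held less of it than the total library. Between the bound libraries it was 1.64 (1.11 to 2.44) in favour of eIF3E. SMG5 and MAGOH showed the other order. SMG5 had 39, 84 and 44 counts, a ratio of 1.85 (1.25 to 2.77) with eIF3B, and 0.462 (0.313 to 0.673) for eIF3E over eIF3B. MAGOH had 31, 62 and 33 counts, a ratio of 1.72 (1.097 to 2.73) with eIF3B, and 0.469 (0.298 to 0.727) for eIF3E over eIF3B. For both genes the eIF3B-bound library was the high one, while eIF3E-bound and total footprints did not differ beyond counting error.

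UPF1, with 219, 373 and 399 counts, was at 1.46 (1.23 to 1.73) with eIF3B and 1.38 (1.17 to 1.63) with eIF3E. Both bound libraries were thus above the total library by less than 1.5-fold. NCBP1 had 203, 200 and 159 counts and was at 0.845 (0.691 to 1.03) with eIF3B and 0.592 (0.478 to 0.732) with eIF3E. EIF4A3 had 245, 269 and 239 counts and was at 0.942 (0.789 to 1.12) with eIF3B and 0.737 (0.614 to 0.885) with eIF3E. For NCBP1 and EIF4A3 the eIF3E-bound library was the low one. UPF2 had 54, 42 and 54 counts, and all 3 of its intervals held 1. RBM8A, with 48, 14 and 24 counts, and UPF3B, with 10, 6 and 8, were below the minimum of 100 counts. RBM8A was nonetheless at 0.250 (0.127 to 0.461) of total with eIF3B and 0.378 (0.221 to 0.629) with eIF3E.

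**Figure D4:**
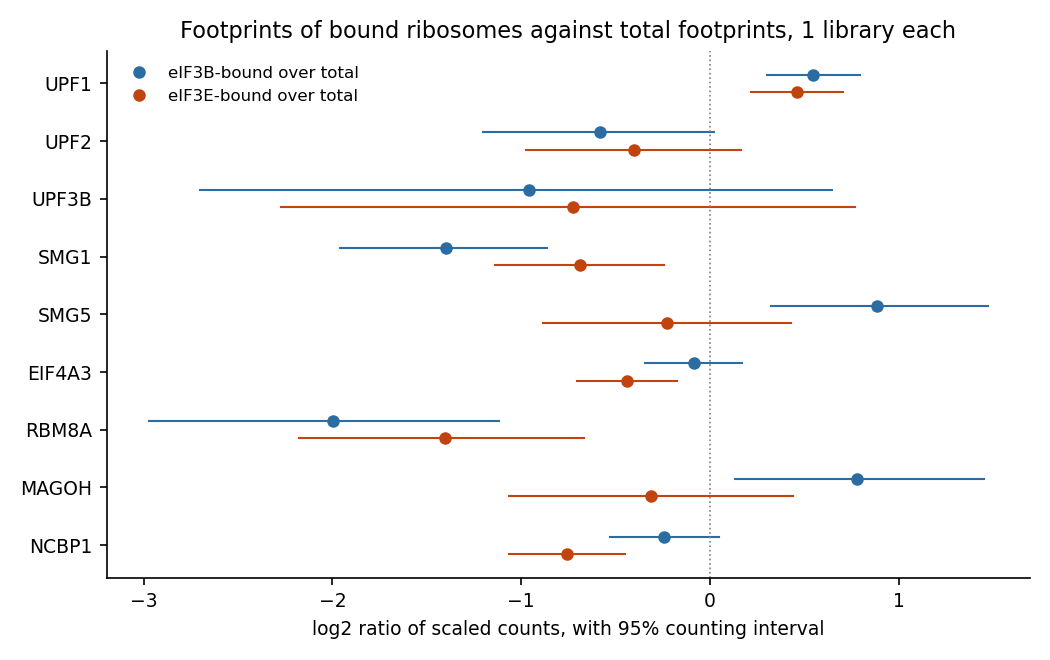
Log2 ratio of eIF3B-bound (blue) and eIF3E-bound (orange) to total footprints for each of the 9 genes (x axis), with exact 95% intervals that cover counting error only; 1 library each, no test. RBM8A and SMG1 lie lowest in eIF3B-bound over total footprints, and SMG5 and MAGOH highest.

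The plot of single-library ratios shows intervals that widen with falling counts, from UPF1 to UPF3B. No order of the 9 genes is read from it beyond intervals that do not overlap, such as those of SMG1 and SMG5 in eIF3B-bound over total footprints.

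Other genes of the pathway were taken as lists by role, with the tests adjusted over all genes. Each list's counts stand against the shares of all genes tested, 18.8% that rose and 18.7% that fell in total RNA, and 10.0% and 8.46% in footprints. Of 14 other surveillance genes 12 were tested in total RNA, of which 3 rose and 2 fell, with a median log2 fold change of 0.06. Both counts are near the shares of all genes. RUVBL1, an ATPase of a complex that assembles SMG1 and other large kinases, rose by 1.65 ± 0.19 on the log2 scale (edgeR adjusted p = 5.9e-06), and its partner RUVBL2 by 0.56 ± 0.14 (adjusted p = 0.0041). SMG9, a partner of SMG1 in its kinase complex that was named after its value was seen, rose by 1.00 ± 0.28 (adjusted p = 0.010). Its total RNA counts were low, at 11 to 29 in control and 35 to 48 in eIF3e libraries. Footprints of SMG9 did not pass, at 0.04 ± 0.51 (edgeR adjusted p = 0.97). The release factor ETF1, which recognises stop codons, fell by 0.70 ± 0.12 (adjusted p = 0.00028), and NBAS, which acts in decay at the endoplasmic reticulum, fell by 0.55 ± 0.11 (adjusted p = 0.00080). In footprints 11 were tested, of which RUVBL1 rose by 1.05 ± 0.26 (adjusted p = 0.0035) and the helicase MOV10, which binds UPF1, fell by 0.61 ± 0.14 (adjusted p = 0.0013). SMG6, a relative of SMG5 whose mRNA has also been described as a target of the pathway in human cells, was at 0.16 ± 0.20 in total RNA and did not pass.

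Of 13 other exon junction genes 10 were tested in total RNA, with 1 that rose and 0 that fell (median log2 fold change -0.05). The 1 was PYM1, which takes exon junction complexes apart on translated mRNA, at 0.94 ± 0.25 (edgeR adjusted p = 0.0072). In footprints 0 of 11 changed, and the genes with the highest mean CPM of the fit, not scaled by length, ACIN1 and SRRM1, were at -0.33 ± 0.14 (adjusted p = 0.12) and 0.20 ± 0.19. Of 8 cap-binding genes 7 were tested in total RNA, with 2 that rose and 1 that fell. SRRT, which joins the cap-binding complex to RNA processing, rose by 0.72 ± 0.20 (adjusted p = 0.0087; 0.055 without control replicate 2). ZC3H18, another partner of that complex, rose by 0.64 ± 0.23 (adjusted p = 0.038), and CTIF, which supports translation from the cap-binding complex, fell by 0.43 ± 0.16 (adjusted p = 0.041). The call held in 6 of 12 alternatives for ZC3H18 and in 7 of 13 for CTIF. Both calls were lost without control replicate 1 (adjusted p = 0.15 for each), without control replicate 2 (0.13 and 0.057) and without eIF3e replicate 2 (0.093 and 0.16). ZC3H18 was also lost without eIF3e replicate 1 (0.14) and CTIF without eIF3e replicate 3 (0.071). In footprints 0 of 6 changed, with SRRT at 0.34 ± 0.25 and NCBP2, the small subunit beside NCBP1, at -0.26 ± 0.30.

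Among enzymes of general mRNA decay, DDX6, XRN1 and DIS3 fell in both total RNA and footprints. Of 26 genes 25 were tested in total RNA, with 3 that rose and 8 that fell (median log2 fold change -0.20), where 18.8% and 18.7% of all genes did, and 5 and 4 with total-count scaling. DDX6, the helicase that activates decapping, fell by 0.92 ± 0.10 in total RNA (edgeR adjusted p = 4.5e-06) and by 0.88 ± 0.15 in footprints (adjusted p = 7.1e-05). XRN1, the exonuclease that degrades decapped RNA, fell by 0.78 ± 0.14 in total RNA (adjusted p = 0.00030). The decapping enzyme DCP2 fell in total RNA by 0.70 ± 0.17 (adjusted p = 0.0041). The deadenylase CNOT6 fell there by 0.53 ± 0.11 (adjusted p = 0.0018), a call lost with total-count scaling (0.050). Footprints did not pass for either, at 1.04 ± 0.60 for DCP2 (adjusted p = 0.26) and -0.59 ± 0.44 for CNOT6 (0.41). For DCP2 the sign was thus opposite to total RNA, and footprints per mRNA were at 1.72 ± 0.49 (adjusted p = 0.14). In footprints 0 of 24 rose and 5 fell (median -0.22), where 10.0% and 8.46% of all genes did. Among these, DIS3, a nuclease of the exosome, fell by 0.69 ± 0.16 (adjusted p = 0.0024) and CNOT1, the scaffold of the deadenylase complex, by 0.55 ± 0.15 (adjusted p = 0.0066). DIS3 also fell in total RNA, by 0.46 ± 0.13 (edgeR adjusted p = 0.0096). XRN1 fell in footprints by 0.82 ± 0.25 (adjusted p = 0.018), a call lost without control replicate 2 (0.051) or 3 (0.11) and without eIF3e replicate 2 (0.082) or 3 (0.088).

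The list of coding targets held 30 genes with transcripts described as targets of nonsense-mediated decay. All 30 genes were tested in total RNA, where 9 rose and 7 fell (median log2 fold change 0.08). Of all genes tested, 18.8% rose and 18.7% fell. Counts are per gene, so a described target transcript cannot be told apart from other transcripts of the same gene. IFRD1, whose mRNA carries an upstream reading frame, rose by 1.08 ± 0.15 (edgeR adjusted p = 4.4e-05), and PPP1R15A, a phosphatase subunit of the stress response, by 0.73 ± 0.13 (adjusted p = 0.00059). CHAC1, a glutathione-degrading enzyme, fell by 1.495 ± 0.23 (adjusted p = 0.00011) and the ribosomal protein gene RPL3 by 1.13 ± 0.13 (adjusted p = 1.0e-05). In footprints 2 of 26 rose and 5 fell (median -0.20), where 10.0% and 8.46% of all genes did. PPP1R15A rose there by 1.03 ± 0.20 (adjusted p = 0.00035) and TBL2 by 0.96 ± 0.18 (adjusted p = 0.00017), while CDKN1A, an inhibitor of cyclin-dependent kinases, fell by 0.99 ± 0.15 (adjusted p = 8.0e-06) and RPL3 by 0.92 ± 0.13 (adjusted p = 4.4e-06). TBL2 and CDKN1A also passed in total RNA, at 0.48 ± 0.12 (edgeR adjusted p = 0.0053) and -0.49 ± 0.11 (0.0023). Of 12 non-coding hosts of small nucleolar RNAs, whose spliced transcripts are degraded when translated, 6 rose and 2 fell in total RNA (median 0.38), where 18.8% and 18.7% of all genes did. SNHG17, SNHG12 and SNHG1 rose by 1.02 ± 0.14 (adjusted p = 2.5e-05), 0.77 ± 0.15 (0.00064) and 0.63 ± 0.12 (0.00077), while SNHG16 fell by 0.83 ± 0.14 (0.00025). These hosts were not in the footprint table. No gene of these lists changed in footprints per mRNA in the main fit, and 1 coding target fell with total-count scaling. In the main fit MOV10 and ETF1 were at -0.28 ± 0.18 and 0.41 ± 0.21 in footprints per mRNA. They were the surveillance genes with the highest mean CPM of that fit over both assays, not scaled by length.

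**Figure D5:**
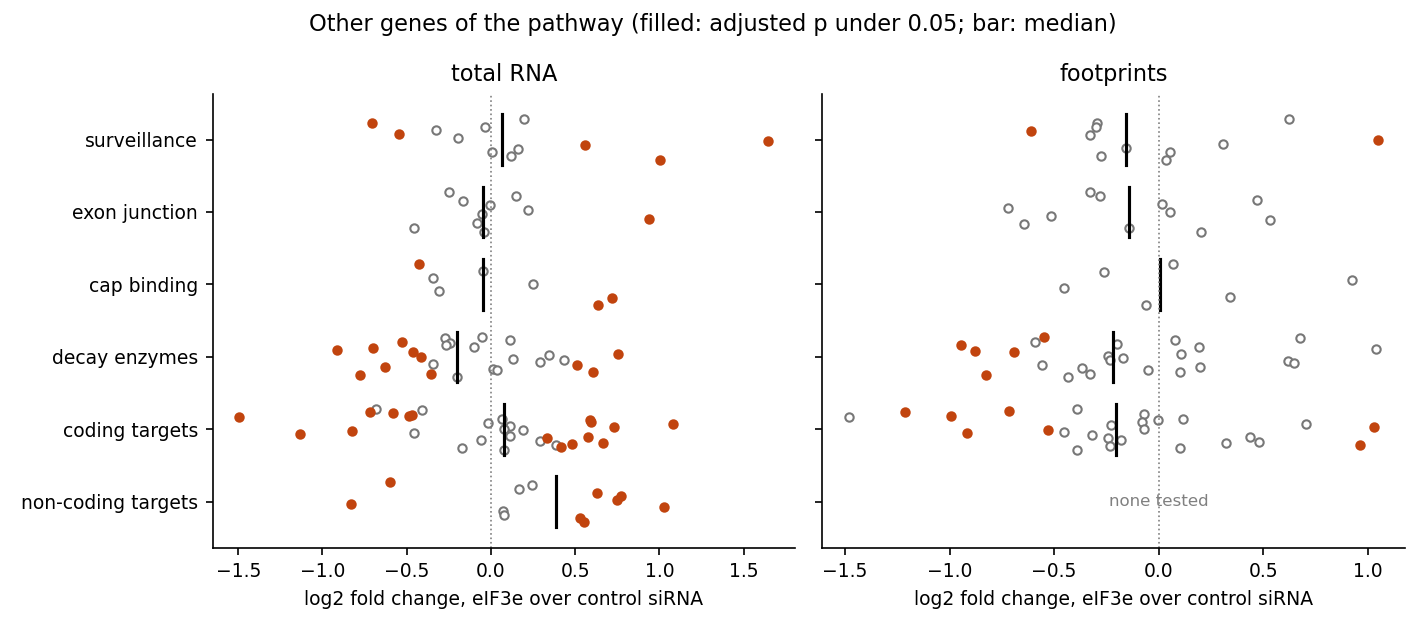
Log2 fold change of eIF3e over control siRNA (x axis) of the other genes of the pathway by list in total RNA and in footprints; each point is a gene, filled where the edgeR adjusted p was under 0.05, and the bar is the list's median. Filled points lie on both sides of 0 for surveillance genes and coding targets in both panels, and the hosts (non-coding targets) were not in the footprint table.

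The plot of pathway lists sets the median of each list beside the single genes, which spread to both sides of 0 in every list tested. The lists overlap in UPF3A, and the test of a difference between lists was not run.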

How the data were processed

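Ribosome footprints and total RNA were sequenced from MCF-10A cells. The values are raw read counts per gene as the authors deposited them. Per the labels' protocols, lysates were digested with RNase I, footprints were isolated on Sephacryl columns, rRNA was depleted (Ribo-Zero Gold) and pieces of 26 to 34 nt were cut from gels. Per the submitters' processing notes, cutadapt 1.18, Bowtie 1.1.2, STAR 2.5, HTSeq and the build hg38 were used. No source used here gives the annotation, the strand setting or how reads with several matches were treated. Reads had no stated molecular identifiers.

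The 9 genes and the gene lists were chosen with earlier results of these data known. Counts were fitted in R 4.3.3 with edgeR 4.0.16 (quasi-likelihood F test, two-sided, filterByExpr with a minimum count of 10, TMM within each assay, robust, siRNA as the only covariate) on the whole table of each assay, and p-values were adjusted (Benjamini-Hochberg) across every tested gene. SE is the log2 fold change divided by the square root of F. Footprints per mRNA were the interaction of assay and siRNA over 12 libraries; only genes that passed both filters entered. The biological coefficient of variation was 0.155 in total RNA, 0.245 in footprints and 0.153 over both. The 3 single libraries were scaled together and given exact conditional intervals. A count of 0 allows up to 3 counts, which is 0.531 to 0.704 CPM in total RNA, 0.870 to 1.59 CPM in siRNA footprints and 1.84 to 2.45 CPM in the single libraries. Of each list, up to 4 called genes with the smallest adjusted p were named, or, with none called, the 2 with the highest mean log2 CPM in that fit, which is not scaled by length. Alternatives were DESeq2 1.42.0 (size factors and Wald test), total-count scaling, no filter, a minimum count of 50, a replicate block, total RNA of footprint-table genes only, and each library left out. Levels per kilobase had been planned, but no coding or transcript lengths were used here, so levels of different genes are not compared. Coordinates and promoters are from RefSeq (GRCh38.p14). The fits were tested on simulated data.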

Additional observations from a re-analysis of the deposited data

How the results depend on the processing

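The number of the 9 genes called in total RNA was 2. It was 1 with DESeq2 size factors, 4 with total-count scaling, 0 with no filter and 0 in DESeq2's Wald test. At a minimum count of 50 it was 3, of 6 tested. The number was 4 when only genes of the footprint table were fitted, and 0 to 2 with 1 library left out. In footprints it was 1, against 0 with total-count scaling and 0 to 1 with 1 library left out. Genes that fell in total RNA numbered 2197, or 1225 with total-count scaling. In footprints per mRNA, 13 genes rose and 15 fell. The counts were 3 and 89 with total-count scaling and 90 and 57 in DESeq2's Wald test. With no filter 22 rose, at a minimum count of 50 28 fell, and with 1 library left out 0 to 21 rose and 0 to 29 fell.

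Changes close to 0 turned direction. UPF2 in total RNA was 0.004, against -0.009 with DESeq2 size factors, -0.024 with no filter, -0.006 in DESeq2's Wald test, -0.008 with footprint-table genes and -0.134 to 0.143 with 1 library left out. In footprints, leaving out 1 library gave -0.295 to 0.221 for UPF2, -0.84 to 0.198 for RBM8A and -0.106 to 0.022 for UPF1. In footprints per mRNA it gave -0.305 to 0.212 for UPF2 and -0.45 to 0.597 for RBM8A, and total-count scaling gave -0.03 for SMG1 and -0.149 for RBM8A. The causes were not tested.

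Replicate numbers were not taken to pair the libraries. Deviations of same-numbered control and eIF3e libraries correlated at -0.02, 0.19 and 0.30 in total RNA and at 0.00 to 0.03 in footprints. Those of same-numbered total RNA and footprint libraries correlated at 0.14, 0.00 and 0.13 in control and at 0.04 to 0.05 in eIF3e siRNA. For differently numbered total RNA and footprint libraries the values were -0.145 to 0.032 in control and -0.042 to 0.001 in eIF3e siRNA. The main fit of footprints per mRNA did not pair total RNA with footprint libraries either. With a replicate block that paired same-numbered control and eIF3e libraries, 3 of the 9 genes were called in total RNA and 1 in footprints. In footprints per mRNA the block instead paired same-numbered total RNA and footprint libraries within each siRNA group, and 98 genes rose and 68 fell. Of the coding targets of decay, 1 fell in footprints per mRNA with the block. Under the block SMG1 was lost in total RNA (edgeR adjusted p = 0.059), and MAGOH (0.041) and NCBP1 (0.043) passed. The low counts of UPF3B, RBM8A and MAGOH limit what these libraries can show for them.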

Other observations

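The single library of total footprints, to which the labels give no siRNA, can be set beside the 3 control siRNA libraries of footprints on library totals. The difference was not tested. NCBP1 was at 166 CPM in it, against 29.9 to 50.5 CPM in the control siRNA libraries. RBM8A was at 39.2 CPM against 3.27 to 19.0 CPM, UPF1 at 179 against 104 to 130, and EIF4A3 at 200 against 104 to 134. UPF2, SMG1, SMG5 and MAGOH also lay above the control range, at 44.1, 77.6, 31.9 and 25.3 CPM, and UPF3B, at 8.17 CPM, lay within it. The share of all genes that lay above their control range was not computed, so nothing particular to the set is read from these values.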
